A study of Mus musculus with 185 samples.

Results

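The 10 genes described here belong to the AHR and NRF2 pathways. They are Ahr, Arnt, Ahrr, Tiparp, Cyp1a1, Cyp1b1, Nfe2l2, Keap1, Nqo1 and Hmox1, taken by symbol from the 45661 genes counted in single Langerhans cells (LCs) of mouse epidermis. The cells came from bone marrow chimeras. Hosts were lethally irradiated CD45.1 mice with the Cd207DTR allele, a knock-in of the receptor for diphtheria toxin (DT) at Cd207, and donors were CD45.2 wild-type (WT) mice. After engraftment the hosts received a low dose of DT, 5 ng per g of body weight, and epidermal LCs were sorted 2 months later. Host cells that survived are embryo-derived LCs (eLCs, labelled E) and donor cells are monocyte-derived LCs (moLCs, labelled M). Both origins therefore came from irradiated, DT-treated skin, and the eLCs carry the Cd207DTR allele. No untreated skin is among the cells, and age and sex of the animals were not used here. Each cell was put through a Smart-Seq kit on plate 1 or plate 2.

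AHR is a ligand-activated transcription factor that waits in the cytoplasm in a complex with HSP90 and PTGES3 and, once it binds a ligand such as a tryptophan metabolite or a dioxin, enters the nucleus and pairs with ARNT. The pair binds short elements with the core GCGTG and induces Cyp1a1, Cyp1b1, the repressor Ahrr and Tiparp, and the products of these targets degrade the ligand or shut the receptor down. NRF2, encoded by Nfe2l2, is held at a low level by KEAP1, which hands it to an E3 ligase until oxidants or electrophiles modify KEAP1. It then pairs with small MAF proteins on antioxidant response elements and induces enzymes such as NQO1 and HMOX1. The skin is exposed to light, microbes and chemicals that feed both pathways, and AHR is known to be expressed by LCs.

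Cells with at most 5% of reads on mitochondrial genes were kept. This left out 3 moLCs, the lowest at 9.97%, and kept 182 cells, the highest at 3.89%. Of these, 67 moLCs and 29 eLCs were on plate 1 and 36 moLCs and 50 eLCs on plate 2. They held between 432614 and 4525429 reads, and the median number of genes read was 4026 in moLCs and 4488 in eLCs. All 9 LC markers were read, with Cd207 at 26238 counts per 1000000 reads (CPM) for moLCs and 2159 CPM for eLCs, the origin that carries the altered Cd207 locus. All 4 fibroblast markers were at 0, as were 4 of 7 T cell markers (among them Cd3e and Thy1), 4 of 5 melanocyte markers and 3 of 8 keratinocyte markers. The other T cell markers, mainly Cd2, were read in 13 moLCs and 12 eLCs and summed to 15.7 and 17.5 CPM, with single cells up to 283 and 413 CPM. Pmel, the other melanocyte marker, was read in 2 moLCs and 1 eLC. The sum of keratinocyte markers was 21.8 CPM for moLCs and 8.69 CPM for eLCs, and Krt14 was read in 11 and 3 cells. The labels tie no cell to an animal. Each origin therefore counts as 1 sample, and a test between origins was not possible. CPM values are sums of reads over the cells of an origin divided by all their reads, with exact 95% Poisson intervals, and shares of cells carry exact 95% Clopper-Pearson intervals. Both cover counting error only, not animals and not PCR copies, which are counted as separate reads. Of the counts above 0 in the members, 78.9% were even numbers, against 82.8% over all genes, so 1 fragment may often have counted as 2 reads.

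The stretches of 250 bases before the transcription starts of the 4 AHR target genes are shown because their counts in LCs differed so widely while all of them hold the AHR core. They are RefSeq sequences of GRCm38.p6, written 5′ to 3′ on the strand of the gene, with GCGTG, or its complement CACGC where the core lies on the other strand, in capitals. They cover chr13:74292332-74292581 (minus strand) for Ahrr, chr3:65528197-65528446 (plus) for Tiparp, chr9:57697363-57697612 (plus) for Cyp1a1 and chr17:79715062-79715311 (minus) for Cyp1b1.
Ahrr: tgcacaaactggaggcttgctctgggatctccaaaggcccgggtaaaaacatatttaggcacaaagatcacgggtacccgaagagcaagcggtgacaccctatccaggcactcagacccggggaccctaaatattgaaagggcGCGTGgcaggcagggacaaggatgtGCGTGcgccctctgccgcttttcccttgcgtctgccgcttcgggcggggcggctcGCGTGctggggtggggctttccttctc
Tiparp: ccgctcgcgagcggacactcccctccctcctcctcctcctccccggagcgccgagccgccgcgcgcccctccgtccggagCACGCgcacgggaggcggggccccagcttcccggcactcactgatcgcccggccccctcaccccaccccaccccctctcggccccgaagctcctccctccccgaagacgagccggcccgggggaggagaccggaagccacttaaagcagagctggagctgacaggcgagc
Cyp1a1: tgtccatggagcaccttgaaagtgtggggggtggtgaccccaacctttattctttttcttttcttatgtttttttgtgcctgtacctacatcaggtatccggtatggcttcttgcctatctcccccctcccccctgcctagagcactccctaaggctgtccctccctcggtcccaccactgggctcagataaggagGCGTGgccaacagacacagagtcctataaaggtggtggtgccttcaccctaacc
Cyp1b1: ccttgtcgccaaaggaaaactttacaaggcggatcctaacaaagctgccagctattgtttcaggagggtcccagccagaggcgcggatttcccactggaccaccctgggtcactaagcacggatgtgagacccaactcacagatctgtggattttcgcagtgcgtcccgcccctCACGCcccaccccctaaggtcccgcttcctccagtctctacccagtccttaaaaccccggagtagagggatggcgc
Ahrr held 3 matches, of which 2 lie 78 and 23 bases before the start, and the other genes held 1 each, at 166 bases for Tiparp, 50 for Cyp1a1 and 72 for Cyp1b1. GCGTG on either strand occurs in 28.2% of 32851 such upstream windows of mouse genes, so a match is common. Of the 10 members, 8 were matched in the RefSeq table, all but Ahr and Hmox1. Among the others, Arnt and Keap1 held 1 match each and Nfe2l2 and Nqo1 none. The window gives no information on the distal elements known for Cyp1a1.

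For NRF2, the core TGACNNNGC was searched on both strands in the same windows and occurs in 10.2% of them. It was absent from the Nqo1 window, present once before Nfe2l2 and present on both strands before Arnt. Prdx1 and Txnrd1, which nearly all LCs read, and Gclm, which some read, held 1 match each and are shown with 41 bases around it. For Txnrd1 it lies before the second of 3 transcription starts in the table, and the windows of the other starts held none. The match is in capitals and in each case is read from the other strand. The stretches are chr10:82859098-82859138 for Txnrd1 (thioredoxin reductase), chr4:116685450-116685490 for Prdx1 (peroxiredoxin) and chr3:122245407-122245447 for Gclm (a subunit of the glutathione-making ligase), all on the plus strand.
Txnrd1: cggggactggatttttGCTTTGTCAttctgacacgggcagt
Prdx1: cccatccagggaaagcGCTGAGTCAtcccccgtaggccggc
Gclm: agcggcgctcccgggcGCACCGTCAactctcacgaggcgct
These matches are a description of letters in the windows, and binding was not measured.

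Reads of 9 of the 10 members were found among the 182 cells, and Cyp1b1 had none. Per kilobase of exon, which allows levels to be set side by side between genes, Tiparp stood highest in both origins, at 71.9 CPM per kb in moLCs and 65.2 in eLCs. Nfe2l2 was next, at 29.1 and 26.9 CPM per kb. Ahr and Arnt, the receptor and its partner, were at 6.10 and 6.25 CPM per kb in moLCs and at 5.36 and 6.203 in eLCs. Within plates Ahr ranged from 3.91 to 7.61 CPM per kb and Arnt from 4.18 to 9.20, so the order of these genes was not fixed. Hmox1 was at 13.04 CPM per kb in moLCs, above Ahr and Arnt, and at 3.85 in eLCs, below both. Keap1 was at 4.68 CPM per kb in moLCs and 3.25 in eLCs. Ahrr was at 1.66 and 3.24 CPM per kb, level with Keap1 in eLCs. Nqo1 and Cyp1a1 lay lowest of the genes with reads, at 1.61 and 0.434 CPM per kb in moLCs. A cell held reads of 0 to 7 members with a median of 3 in both origins, and 4 cells held none.

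**Figure D1:**
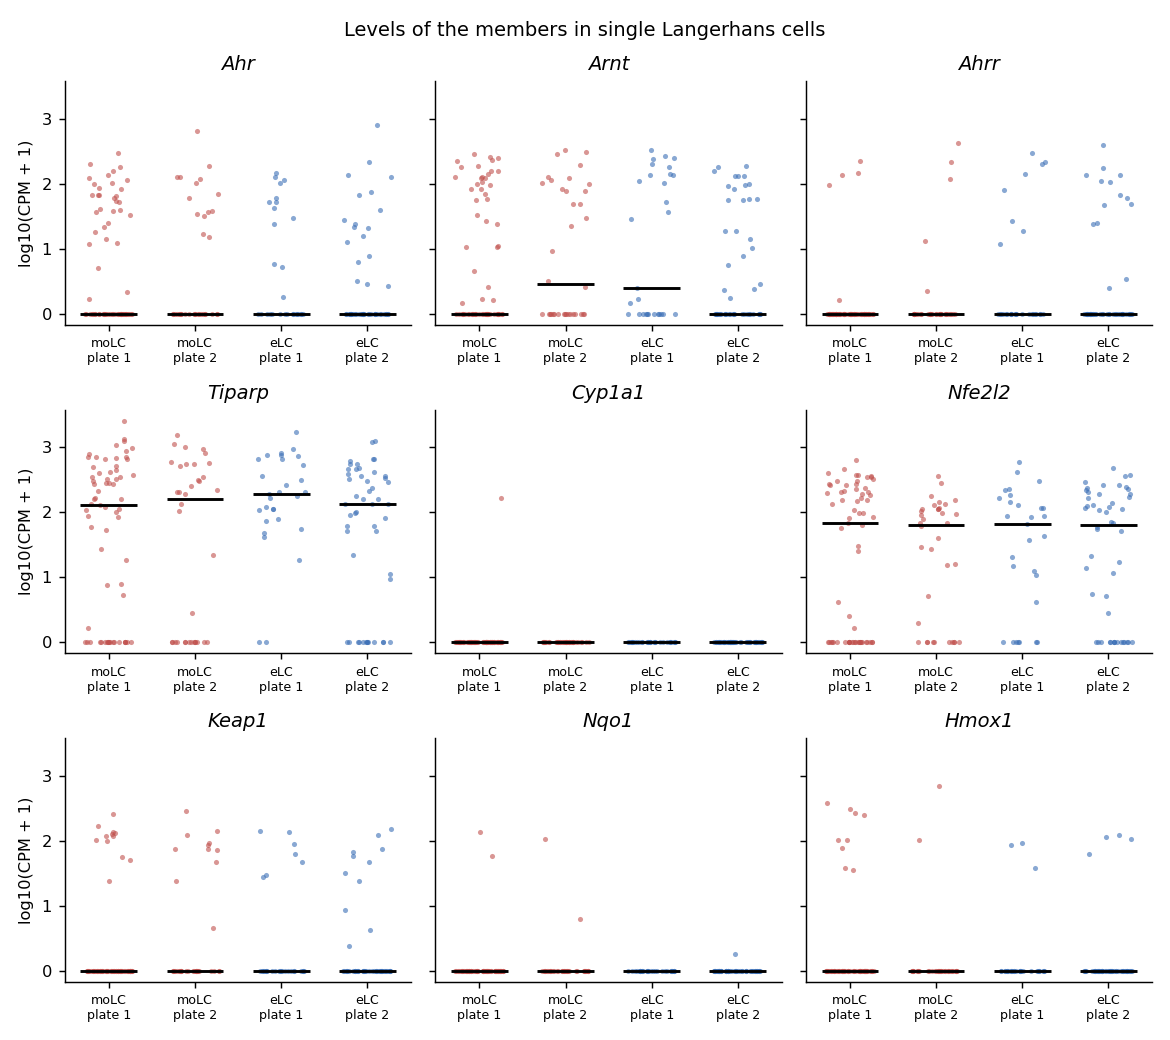
Levels of 9 members in single LCs, as log10(CPM + 1) on the y axis, by origin and plate on the x axis. Each dot is 1 cell and the black bar is the median. Tiparp and Nfe2l2 have medians above 0 in all 4 groups, Arnt in 2 of them, and Cyp1a1 has a single cell above 0.

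The first question was whether the members differed between moLCs and eLCs. The size rule asked for reads in 25% or more of one origin's cells and for a difference of 2-fold or more, in one direction, over all cells, on plate 1 and on plate 2. Of 6522 genes with enough cells, 0.813% passed as higher in moLCs and 1.21% as higher in eLCs. None of the 10 members passed, of which 5 (Ahr, Arnt, Ahrr, Tiparp and Nfe2l2) were read in enough cells. For Arnt, Tiparp and Nfe2l2, the ratio had opposite signs on the plates, which held for 45.7% of all genes tested. The median log2 ratio (moLCs over eLCs) over all 6522 genes was -0.10.

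Ahr, the receptor gene, spans bases 35497974 to 35535038 of chromosome 12 (GRCm38, minus strand). Its level in single moLCs ran from 0 to 658 CPM with a median of 0, and in eLCs from 0 to 792 CPM with a median of 0. Reads of Ahr were found in 46 moLCs (44.7%, 34.9 to 54.8) and 31 eLCs (39.2%, 28.4 to 50.9). The origins overlapped over nearly their whole range. Pooled over cells, Ahr stood at 37.6 CPM (36.9 to 38.3) in moLCs and 33.04 CPM (32.3 to 33.8) in eLCs, or 0.19 as a log2 ratio. It was 0.44 within plate 1 and 0.26 within plate 2. One eLC of plate 2 held 3125 reads, 43.4% of all Ahr reads of eLCs, and without it the ratio was 0.98. Without the 14 cells with a Krt14 read it was -0.21. The span of the lincRNA Gm48236 overlaps Ahr on the other strand. Where exons overlap, reads cannot be told apart in an unstranded library, and overlap of exons was not checked.

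Arnt encodes the partner that AHR needs for DNA binding and that HIF1A shares, and spans bases 95434388 to 95497240 of chromosome 3 (plus strand). Single moLCs ran from 0 to 332 CPM with a median of 0.476, and eLCs from 0 to 329 CPM with a median of 0.702. Arnt was read in 52 moLCs (50.5%, 40.5 to 60.5) and 41 eLCs (51.9%, 40.4 to 63.3). Its pooled level was 50.02 CPM (49.2 to 50.8) in moLCs and 49.7 CPM (48.7 to 50.6) in eLCs, and the log2 ratio of 0.01 had an interval from -0.03 to 0.05. Within plates the ratio was -0.62 and 0.69, so the near-equality of the sums did not hold on either plate. The processed pseudogene Gm42672 lies within Arnt. Ahr and Arnt were read together in 42 cells, against 39.4 from the product of their shares within origin and plate.

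Ahrr, the repressor that competes with AHR for ARNT and is itself an AHR target, spans bases 74211118 to 74292331 of chromosome 13 (minus strand). Single moLCs ran from 0 to 432 CPM and eLCs from 0 to 400 CPM, with medians of 0. Ahrr was read in 10 moLCs (9.71%, 4.76 to 17.1) and 22 eLCs (27.8%, 18.4 to 39.1). Over all cells the difference in shares, moLCs minus eLCs, was -18.1 points. Over the 6522 genes tested this difference had a median of -4.12 points and a 5th percentile of -17.0. The intervals of the Ahrr shares overlapped within each plate. Within plate 1 the shares were 7.46% and 27.6%, and within plate 2 they were 13.9% and 28%. Among cells with a read, the median level was 126 CPM in moLCs and 72.6 CPM in eLCs, so the origins differed in how many cells held a read and not in a lower level within those cells.

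The pooled level of Ahrr was 15.7 CPM (15.3 to 16.2) in moLCs and 30.6 CPM (29.9 to 31.4) in eLCs. The log2 ratio was -0.96 over all cells. It was -1.77 within plate 1 and -0.10 within plate 2. One moLC of plate 2 held 1714 reads, 36.4% of the Ahrr reads of moLCs, and without it the ratio was -1.60 over all cells and -1.39 within plate 2. The eLC with the most reads, also of plate 2, held 1252 of the 3783 Ahrr reads of eLCs there. Without that eLC the ratio over all cells was -0.69, and its removal within plate 2 was not tried. The moLCs with an Ahrr read had a median of 3975.5 genes read and those without 4044, so the Ahrr-read moLCs did not have more genes read. Among eLCs the medians were 4678 and 4424. Of the 10 Ahrr-read moLCs, 2 also held Krt14 reads, and of the 22 eLCs none did.

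Tiparp encodes a mono-ADP-ribosyltransferase that modifies and restrains AHR and spans bases 65528410 to 65555518 of chromosome 3 (plus strand). It had the most reads of the members. Single moLCs ran from 0 to 2584 CPM with a median of 134, and eLCs from 0 to 1737 CPM with a median of 158. Reads were found in 70 moLCs (67.96%, 58.04 to 76.8) and 64 eLCs (81.01%, 70.6 to 88.97). The lowest level among cells with a read was 0.677 CPM in moLCs and 8.55 CPM in eLCs. Over all cells Tiparp stood at 313 CPM (311 to 315) in moLCs and 284 CPM (282 to 286) in eLCs. The log2 ratio was 0.14, with -0.11 within plate 1 and 0.32 within plate 2. The pseudogene 4931440P22Rik overlaps Tiparp on the other strand.

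Thus Ahrr and Tiparp were read in a smaller share of moLCs than of eLCs on both plates, by 20.1 and 14.1 percentage points for Ahrr and by 21.5 and 12.9 for Tiparp. A limit of 10 points in the same direction on both plates was set after these values were seen. By it, 9.11% of 6522 genes were read in a smaller share of moLCs and 1.30% in a larger share. The median difference over all genes was -6.02 points on plate 1 and -1.44 on plate 2, so shares were lower in moLCs in general. With reads drawn down to 2052512 in every cell, which 7 moLCs and 12 eLCs did not reach, the shares were 10.4% and 25.4% for Ahrr and 69.8% and 82.1% for Tiparp. The difference within plate 2 was then -9.24 points for Ahrr. Without the Krt14-read cells it was -0.50 points for Tiparp and -18.8 for Ahrr.

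**Figure D2:**
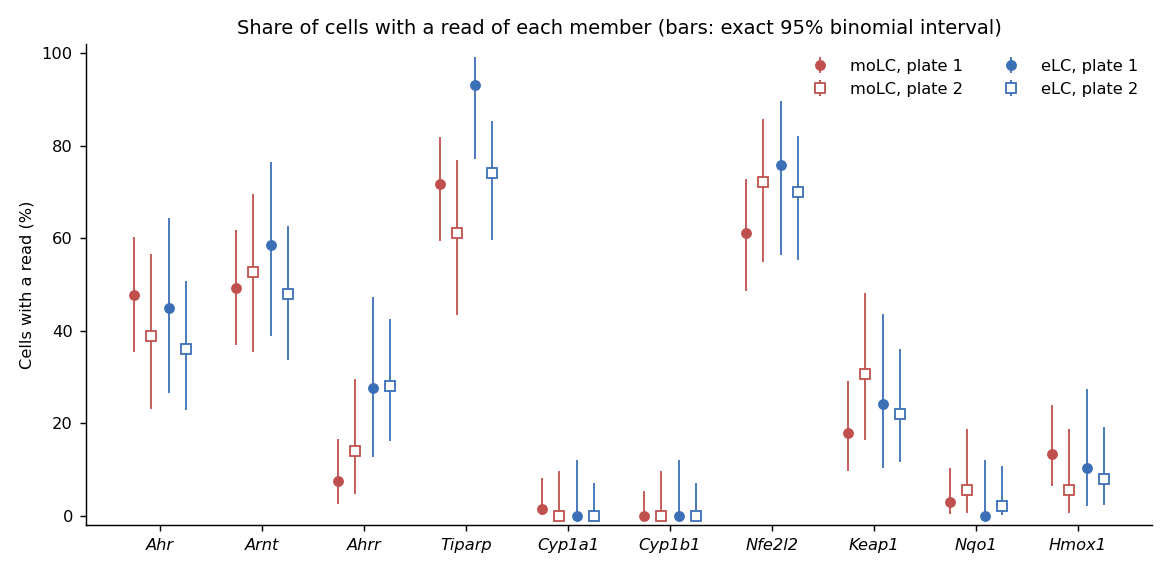
Share of cells with at least 1 read of each member, in percent, by origin (color) and plate (filled circle or open square), with exact 95% binomial intervals. Ahrr lies at 7.46% and 13.9% in moLCs and at 27.6% and 28% in eLCs. Tiparp lies at 71.6% and 61.1% in moLCs and at 93.1% and 74% in eLCs.

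Cyp1a1 and Cyp1b1 encode the monooxygenases that oxidize AHR ligands and are the classical readouts of ligand-bound AHR. Cyp1a1 (chromosome 9, 57687928 to 57703824, plus strand) was read in 1 moLC, a cell of plate 1 with 363 reads or 166 CPM. That cell also held 394 Ahr reads, but none of Arnt, Ahrr, Tiparp or Nfe2l2. No eLC held a Cyp1a1 read. Taken as 3 counts, 0 of 79 cells allows a share of up to 3.80%, and the exact interval ends at 4.56%. Cyp1b1 (chromosome 17, 79701537 to 79715061, minus strand) was read in no moLC and no eLC, which by 3 counts allows shares of up to 2.91% and 3.80% and levels of up to 0.00999 and 0.0138 CPM. The exact intervals end at 3.52% and 4.56%, and at 0.0123 and 0.0169 CPM. Of the 8 further AHR target genes listed, Cyp1a2 and Aldh3a1 had no read. The gene with the most reads on that list was Lpcat2, a lysophosphatidylcholine acyltransferase, at 113 CPM in moLCs and 138 CPM in eLCs. It was also the only one read in enough cells for the size rule, and its log2 ratio was -0.78 within plate 1 and 0.32 within plate 2. Serpinb2 was at 5.50 CPM from 1.94% of moLCs and at 0 in eLCs, and Ido1, which starts the path from tryptophan to kynurenine, at 1.20 and 5.37 CPM from 1.94% of moLCs and 2.53% of eLCs.

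The chaperones of AHR were present in both origins, and none of the 4 genes of that list with enough cells passed the size rule. Hsp90ab1 was at 2708 CPM in moLCs and 2665 CPM in eLCs and Hsp90aa1 at 807 and 605 CPM. Ptges3, the co-chaperone p23, was at 67.3 and 76.5 CPM and had reads in 99.03% of the moLCs and 98.7% of the eLCs. Arnt2 and Sim2, relatives of ARNT and AHR, had no read.

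Nfe2l2, which encodes NRF2, spans bases 75675513 to 75704641 of chromosome 2 (minus strand). Single moLCs ran from 0 to 646 CPM with a median of 66.3, and eLCs from 0 to 600 CPM with a median of 66.1. Nfe2l2 was read in 67 moLCs (65.05%, 55.02 to 74.2) and 57 eLCs (72.2%, 60.9 to 81.7). The origins overlapped fully. The pooled level reached 111 CPM (109 to 112) for moLCs and 102.2 CPM (100.8 to 103.5) in eLCs. The log2 ratio of 0.11 was made up of 0.37 on plate 1 and -0.49 on plate 2. The snRNA Gm24996 lies within Nfe2l2.

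Keap1, the inhibitor of NRF2, spans bases 21229730 to 21239361 of chromosome 9 (minus strand). Single moLCs ran from 0 to 287 CPM and eLCs from 0 to 152 CPM, with medians of 0. Keap1 was read in 23 moLCs (22.3%, 14.7 to 31.6) and 18 eLCs (22.8%, 14.1 to 33.6), under the 25% that the size rule asks for. Its pooled level was 21.96 CPM (21.4 to 22.5) in moLCs and 15.3 CPM (14.7 to 15.8) in eLCs. The log2 ratio was 0.53, with 0.01 within plate 1 and 1.11 within plate 2. The gene Gm16754 overlaps Keap1 on the other strand. Nfe2l2 and Keap1 were read together in 27 cells, against 28.3 from the product of their shares.

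Genes for the partners and turnover of NRF2 gave a like picture, since none of the 9 with enough cells met the size rule. Sqstm1, which encodes p62 and draws KEAP1 into autophagy, was read in every cell, at 8814 CPM in moLCs and 7831 CPM in eLCs. Rbx1, a subunit of the ligase that KEAP1 serves, was at 213 and 242 CPM and was also read in every cell. Mafk, a small MAF partner, was at 141 and 92.8 CPM. Over these 9 genes the median log2 ratio was 0.17, and on the plates 0.00 and 0.11.

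Nqo1, a quinone reductase and the textbook readout of NRF2, spans bases 107388225 to 107403206 of chromosome 8 (minus strand) and was nearly absent. Only 4 moLCs held a read (3.88%, 1.07 to 9.65), with 172 and 276 reads on plate 1 and 16 and 286 on plate 2. Among eLCs 1 cell held a read (1.27%, 0.0320 to 6.85), and only 1. Pooled, this gave 2.497 CPM for moLCs and 0.00459 CPM for eLCs, and with 1 read in the denominator the log2 ratio of 9.09 had a counting interval from 6.61 to 14.39. Only these 5 cells bear on it.

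Hmox1 encodes the inducible haem oxygenase and spans bases 75093621 to 75100589 of chromosome 8 (plus strand). Hmox1 was read in 11 moLCs (10.7%, 5.45 to 18.3) and 7 eLCs (8.86%, 3.64 to 17.4). Among these cells the level ran from 34.1 to 705 CPM with a median of 102.8 in moLCs, and from 37.4 to 120 CPM with a median of 90.2 in eLCs. Among them, 5 moLCs lay above the highest eLC, and the others lay within the range of the eLCs or below it. The pooled level was 22.8 CPM (22.3 to 23.4) in moLCs and 6.75 CPM (6.41 to 7.10) in eLCs, which is 3.38-fold. As a log2 ratio this was 1.76, with 1.67 on plate 1 and 1.79 on plate 2.

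The difference in Hmox1 rested on few cells. One moLC of plate 2 held 1894 reads, 27.6% of those of moLCs, and without it the log2 ratio was 1.30 over all cells and -0.70 within plate 2. Of the moLCs with an Hmox1 read, 2 also held Nqo1, and these held 149 and 771 reads of Keap1. Heat shock reads stood beside Hmox1. Hspa1b, an inducible HSP70 gene, was read in 10 of the 11 Hmox1-read moLCs, with a pooled level of 5789 CPM, and in 61 of the 92 others, at 1012 CPM. In eLCs it was read in 5 of 7 and 38 of 72 cells, at 514 and 156 CPM. The medians over single cells were far lower, at 374 and 19.98 CPM in moLCs and 24.1 and 1.02 CPM in eLCs, so the pooled levels rest on a few cells. The part of this in the Hmox1 values was not tested. No Hmox1-read cell held Krt14 reads.

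Of the 12 heat shock and immediate early genes listed, Hspa1b alone passed the size rule, at 1545 CPM for moLCs and 184 CPM for eLCs, and had log2 ratios of 4.95 and 1.03 on the plates. The median log2 ratio of the 12 genes was 0.95, with 1.67 within plate 1 and 0.30 within plate 2. The most abundant genes of the list were Fos, Junb and Jun, parts of AP-1. Fos was at 3048 CPM in moLCs and 2209 CPM in eLCs, Junb at 1540 and 1410 CPM and Jun at 1396 and 757 CPM.

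Other NRF2 target genes were read far more widely than Nqo1 and Hmox1. Of 22 listed, 20 had a read and 15 were read in enough cells, and none of the 15 met the size rule. The log2 ratio had a median of -0.14, and of 0.03 and 0.08 on the plates. Akr1a1, an aldehyde reductase, was at 916 CPM in moLCs and 1019 CPM in eLCs and was read in every cell. Prdx1 was at 841 and 747 CPM, and Txnrd1 at 696 and 797 CPM, and both had reads in 96.1% or more of each origin. Srxn1, sulfiredoxin, was named after its values were seen. It was at 122 CPM for moLCs and 209 CPM for eLCs and had log2 ratios of -0.89 and -0.68 within plates, short of the 2-fold limit.

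Among the genes for haem and iron, 1 of 7 with enough cells passed the size rule. Hmox2, the constitutive haem oxygenase, was at 20.3 CPM in moLCs and 61.9 CPM in eLCs. The log2 ratio was -1.61, with -1.98 within plate 1 and -1.13 within plate 2. Leaving out any 1 cell kept it between -1.71 and -1.50. Reads were in 46.6% of the moLCs and 60.8% of the eLCs. In pooled CPM Hmox1 and Hmox2 thus lay on opposite sides, Hmox1 in few cells and Hmox2 in many. On plate 2 the side of Hmox1 rested on 1 moLC, without which its log2 ratio there was -0.70. Hmox1 was read in 5.56% of the moLCs and 8% of the eLCs of plate 2. The span of Hmox2 overlaps those of Cdip1, on the other strand, and Gm15859. Where exons overlap the reads cannot be told apart, and overlap of exons was not checked. The ferritin genes Fth1 and Ftl1, which store the iron that haem oxygenases release and are themselves NRF2 targets, were read in every cell. Fth1 was at 5840 CPM in moLCs and 5265 CPM in eLCs, and Ftl1 at 5286 and 5075 CPM. Blvrb, a biliverdin reductase, was at 68.2 and 93.6 CPM.

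**Figure D3:**
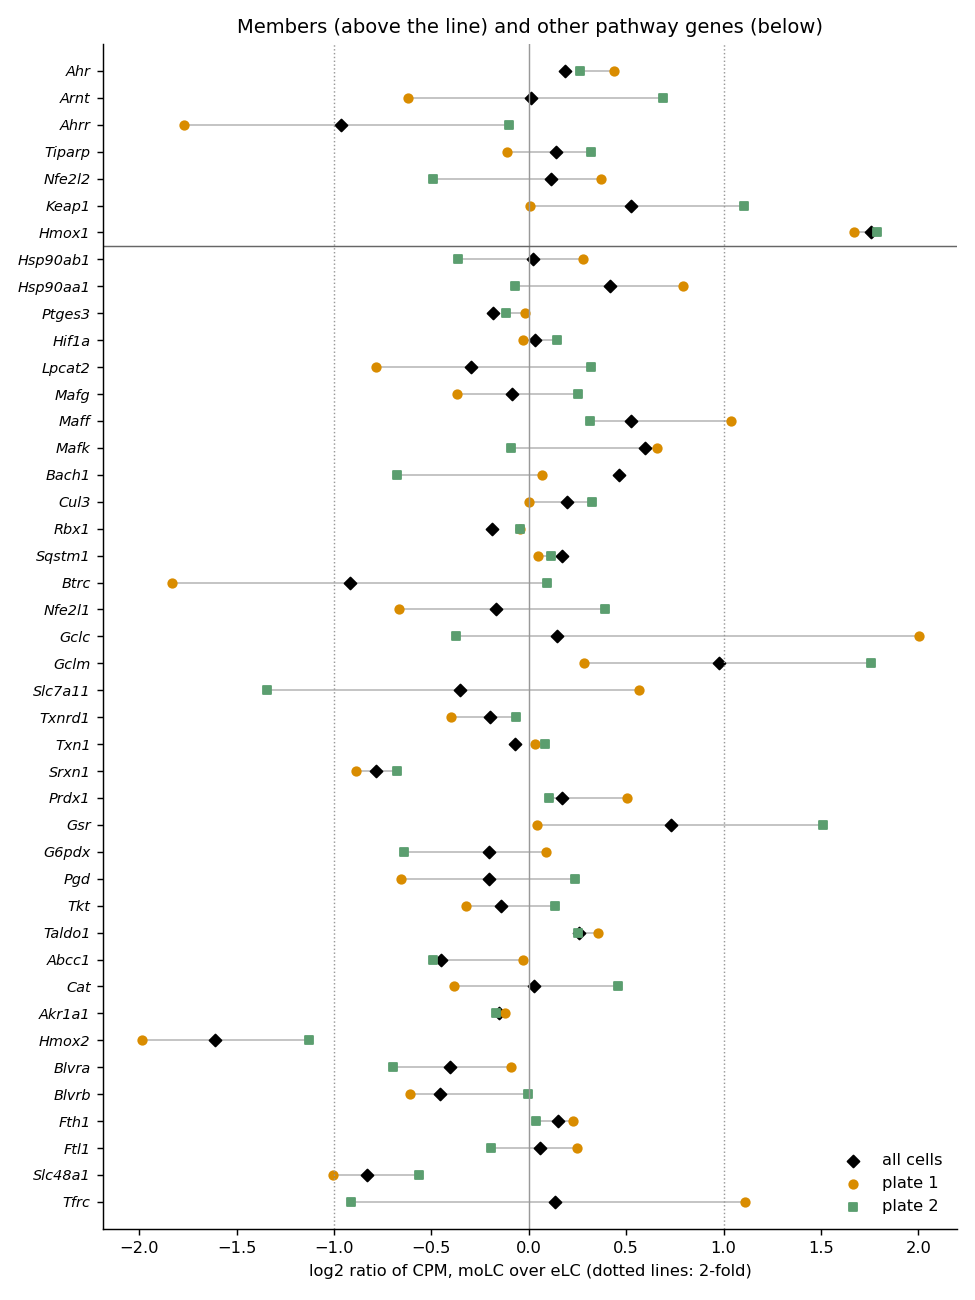
Log2 ratio of CPM, moLCs over eLCs, for 7 members above the line and other genes of both pathways and of haem and iron handling with enough cells below it. Diamonds are all cells, circles plate 1 and squares plate 2, and dotted lines mark 2-fold. Hmox2 lies beyond the line at -1 in all 3, from -1.98 to -1.13, and Hmox1 beyond the line at 1, from 1.67 to 1.79, but from few cells.

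**Figure D4:**
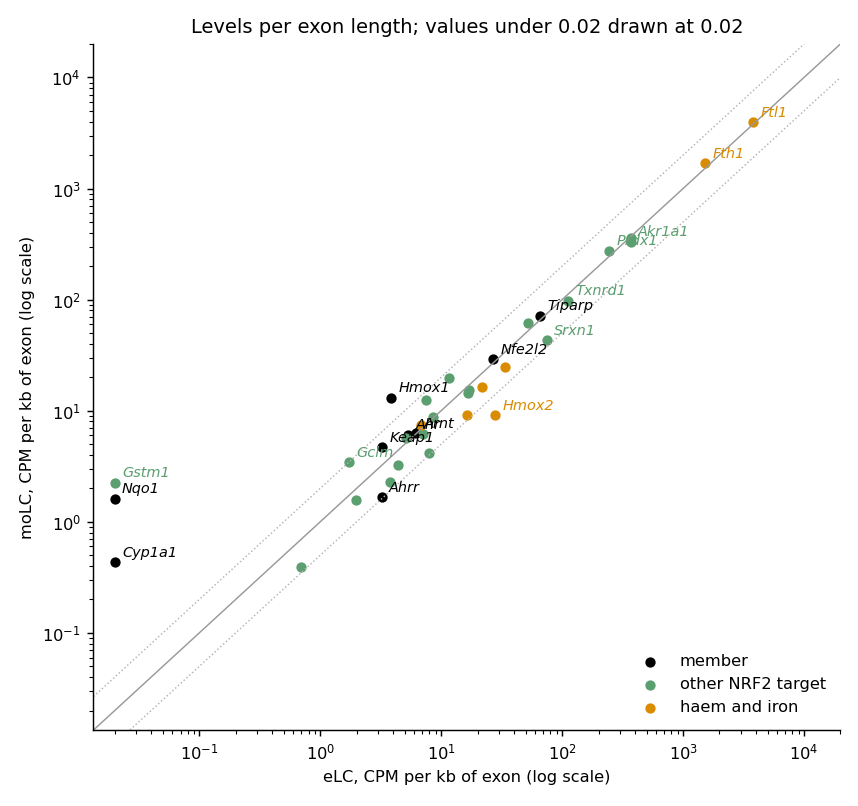
Pooled levels in CPM per kb of exon, eLCs on the x axis and moLCs on the y axis, both on log scales, for members (black), other NRF2 targets (green) and genes of haem and iron handling (orange). The solid line marks equal levels and the dotted lines 2-fold. Tiparp (71.9 and 65.2) and Nfe2l2 (29.1 and 26.9) lie on the solid line, Hmox1 (13.04 and 3.85) above the dotted line and Hmox2 below it.

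The plates were compared by the same size rule, with the 2-fold difference required over all cells and within each origin. Of 6408 genes with enough cells, 1.56% passed in either direction, and none of the 10 members did, of which 5 had enough cells. Bach1, from the list of NRF2 partners and turnover, passed as higher on plate 1. It was at 24.9 CPM on plate 1 and 3.11 CPM on plate 2 in moLCs, and at 23.8 and 4.97 CPM in eLCs. Ahr was lower in pooled CPM on plate 1 than on plate 2, with log2 ratios of -0.52 in moLCs and -0.70 in eLCs. Without the eLC with 3125 reads, plate 2 eLCs were at 15.5 CPM, below the 24.1 CPM of plate 1. In moLCs, 1 cell of plate 2 held 2326 of the 4899 Ahr reads there, and its removal within the plate was not tried. Shares of cells with an Ahr read were larger on plate 1, at 47.8% against 38.9% in moLCs and 44.8% against 36% in eLCs. Tiparp was higher in pooled CPM on plate 1, with log2 ratios of 0.06 in moLCs and 0.49 in eLCs. Arnt, Ahrr and Nfe2l2 had ratios of opposite sign in the origins. These were -0.17 in moLCs and 1.14 in eLCs for Arnt, -1.49 and 0.17 for Ahrr, and 0.84 and -0.03 for Nfe2l2.

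The second question was whether the members moved together from cell to cell. Ahr, Arnt, Tiparp and Nfe2l2 passed 25% of cells in both origins, and their 6 pairs were compared by Spearman rank correlation of CPM in 4 groups of cells, each origin on each plate. The 24 values ran from -0.23 to 0.34. No pair reached 0.3 in every group. The highest value, 0.34 for Arnt and Tiparp in the 29 eLCs of plate 1, was beside values from -0.08 to 0.02 in the other groups. For Ahr and Tiparp, receptor and target, values ran from -0.12 to 0.13. The cells of a group share a plate and a depth range, and the correlations are a description of these cells in sparse counts.

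**Figure D5:**
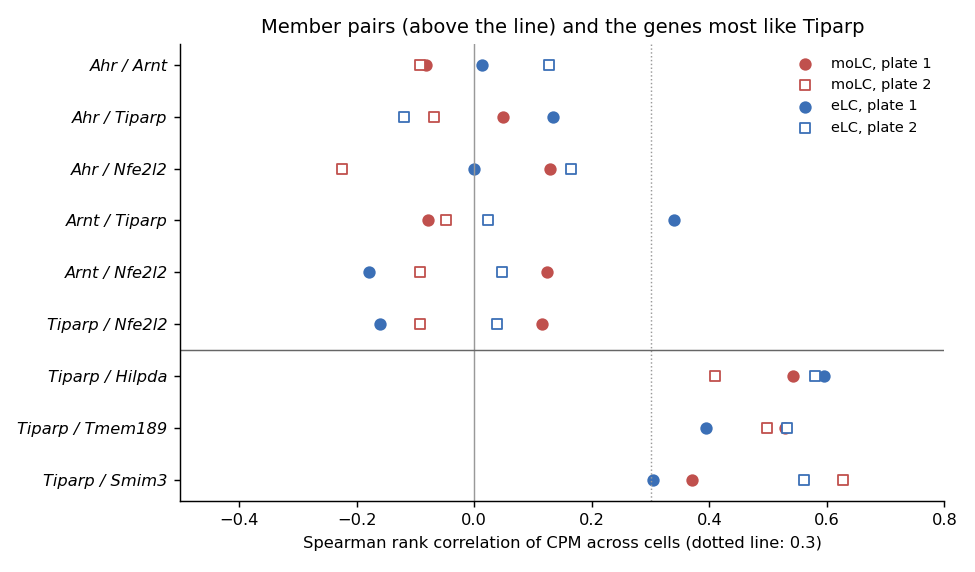
Spearman rank correlation of CPM across cells for the 6 member pairs, above the line, and for Tiparp with the 3 genes most like it, below. Each symbol is 1 of 4 groups, origin by color and plate by filled circle or open square, and the dotted line marks 0.3. Member pairs scatter around 0 from -0.23 to 0.34, and Tiparp with Hilpda runs from 0.41 to 0.59.

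Each of these 4 genes was also compared with the 5565 other genes past 25% of cells in both origins, by the mean of the correlation over the 4 groups. For Tiparp the median over all genes was 0.02, the 95th percentile 0.21 and the highest 0.53. The genes most like it were Hilpda, a lipid droplet protein known as hypoxia-inducible, with a mean of 0.53 (0.41 to 0.59 over the groups), Tmem189 at 0.49 (0.39 to 0.53) and Smim3 at 0.47 (0.30 to 0.63). All had reads in 61.2% or more of each origin. Hilpda was at 518 CPM in moLCs and 632 CPM in eLCs.

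Tiparp also ran with some listed genes, whose values are given for their whole lists. Among 13 other NRF2 targets the means ran from -0.15 for Akr1a1 to 0.33 for Srxn1, with 2 above 0.2. Among 7 genes for NRF2 partners and turnover, Sqstm1 was highest at 0.36 (0.24 to 0.51). Among the 12 heat shock and immediate early genes, 9 had a mean below 0 and 6 below -0.2, with Dusp1, a MAP kinase phosphatase, lowest at -0.35 (-0.60 to -0.12) and Junb highest at 0.26. Hspa1b was at -0.29 (-0.54 to -0.07). All 4 groups were below 0 for Hspa1b, while the means of the heat shock genes Dnajb1 and Hsph1 were 0.03 and -0.01. The correlation of Tiparp with the number of genes read ran from -0.03 to 0.37 and with total reads from -0.11 to 0.37.

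For the other 3 genes the highest means were lower. Ahr was most like Nutf2-ps1 (0.30), Map4k3 (0.30) and Ppp6r1 (0.27), against a 95th percentile of 0.15. Arnt was most like Anapc10 (0.34), Usp39 (0.31) and Polr2a (0.30), against 0.15. Nfe2l2 was most like Gm10425, Flot1 and Cd47 (each 0.28), against 0.14. Levels were low for Nutf2-ps1, at 0.739 CPM in moLCs and 0.707 CPM in eLCs, and for Gm10425, at 2.04 and 2.48 CPM. Their ranks therefore rest on few reads per cell. Ppp6r1, Usp39, Polr2a, Flot1 and Cd47 were at 0.03 to 0.14 in their lowest group. For Nfe2l2 the means with 13 of its own other listed targets ran from -0.16 to 0.19, with a median of -0.02.

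The rarer members could be compared only by the cells that held a read. Ahrr was read with Ahr in 16 cells, against 12.96 from the product of their shares, and with Tiparp in 25 cells, against 24.4. Hmox1 was read with Nfe2l2 in 13 cells, against 12.03, and with Tiparp in 16, against 13.4. All 7 Hmox1-read eLCs held Tiparp reads, at a pooled level of 517 CPM against 265 CPM in the other eLCs. In moLCs it was the other way round, at 275 and 318 CPM.

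Members were last set against genes that mark states of LCs, as a description with no count over all genes beside it. Ccr7 encodes the receptor for migration to lymph nodes. Ahrr was read in 1 of 40 moLCs with a Ccr7 read and 9 of 63 without, and in 7 of 31 and 15 of 48 eLCs. Hmox1 was read in 1 of 40 and 10 of 63 moLCs, and in 1 of 31 and 6 of 48 eLCs. Shares of Ahr and Keap1 were also lower in the Ccr7-read cells of both origins. Tiparp went the other way, at 72.5% and 65.1% in moLCs and 90.3% and 75% in eLCs. The origins disagreed for Arnt, at 62.5% and 42.9% in moLCs but 38.7% and 60.4% in eLCs. They also did for Nfe2l2, at 72.5% and 60.3% in moLCs but 58.1% and 81.25% in eLCs. The median number of genes read was 4118.5 and 3975 in moLCs with and without a Ccr7 read. Timd4 is a gene of long-resident macrophages. Ahrr was read in 4 of 21 moLCs with a Timd4 read and 6 of 82 without, and in 17 of 60 and 5 of 19 eLCs. Tiparp was read in 61.9% of the moLCs with a Timd4 read and 69.5% of those without, and in 85% and 68.4% of the eLCs. The median number of genes read was 3737 and 4118.5 in moLCs with and without a Timd4 read, and 4539 and 4130 in eLCs. In both origins the Tiparp share was thus larger in the cells with more genes read. The part of this in the Tiparp shares was not tested.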

How the data were processed

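Full-length cDNA of sorted cells was sequenced, aligned by the authors to mm10 with STAR, per the labels, and deposited as raw counts of reads on each gene, with no normalization. In 8 cells, 9 deposited values that were not whole were rounded, like expected counts. The counting tool and annotation are not given in the sources used here, and the library kit does not mark strand. Cells were grouped by labelled origin and plate, and 3 cells with more than 5% mitochondrial reads were left out. No animal is named, so no test was run. The single-cell test of the study takes cells as replicates and was not used.

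Reads were summed by origin and plate and divided by all reads (CPM). A group at 0 was set to 3 reads over the group. Genes were named by rule: all 10 members, of each companion list the genes past the size rule and the 3 with the highest CPM, and the 3 genes most like each widely read member. Other genes, such as Gclm, Srxn1, Bach1, Dusp1, Dnajb1, Hsph1 and markers at 0, were chosen after their values were seen. The members and lists were chosen with earlier results of these data known, and 1 gene of the companion lists is not reported here. Positions are those of GENCODE M21 (GRCm38), in which 45495 of 45661 names were found, and promoters those of RefSeq (GRCm38.p6). Depth per cell limits the precision of low levels. Python 3.11.15, numpy 2.4.6, pandas 2.3.3, scipy 1.17.1 and matplotlib 3.10.9 were used, and R 4.3.3 with edgeR 4.0.16 and DESeq2 1.42.0 for scaling factors only. The rules were tested on simulated data. Alternatives tried were each plate, all cells, mitochondrial and gene filters, equal weight per cell, TMM and DESeq2 factors, totals without 50 genes, thinned cells, each cell left out, other size limits and, added after the data were seen, cells without Krt14 reads and the rule on shares.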

Additional observations from a re-analysis of the deposited data

Results flagged for a closer look

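The 3 moLCs left out for mitochondrial reads, all of plate 2, held 9.97% to 29.3% of their reads on mitochondrial genes and 233438 to 920430 reads in all. They are outside the comparisons, and 4 members stood higher in them than in the eLCs. Ahr was at 382 CPM over the 3 cells, against 33.04 CPM in eLCs and 46.9 CPM in the kept moLCs of plate 2, and 640 of its 660 reads came from 1 cell. Nfe2l2 was read in all 3 cells, at 328 CPM against 102.2 and 73.2 CPM. Arnt was at 119 CPM from 1 cell, against 49.7 and 53.9 CPM. Hmox1 was read in 2 of the 3 cells, at 93.8 CPM against 6.75 and 21.95 CPM. Ahrr and Tiparp had no read in them. So few cells allow no comparison with a spread, and the difference was not tested.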

How the results depend on the processing

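No member passed the size rule between origins under any scaling, cell filter or thinning tried. With a read in at least 10% of cells required, Hmox1 passed (1 member, 479 genes), and with no filter on low values Hmox1 and Nqo1 passed (2 members, 1546 genes), against 132 genes in the main count. At 1.5-fold, 501 genes and no member passed. Between plates the counts of genes at these settings were 397, 1370 and 431, against 100, and no member passed. The 2 members past the rule on shares became 1 after thinning (Tiparp) and 1 without Krt14-read cells (Ahrr). No member pair reached 0.3 in every group under any alternative. Scaling moved the balance of genes past the size rule. TMM factors shifted all log2 ratios by 0.10 and gave 71 genes higher in moLCs and 62 higher in eLCs, DESeq2 size factors 69 and 62, against 53 and 79 by total reads. Of 116 log2 ratios of members under alternatives, 71 lay outside the counting interval of the main value, as did 5 of 100 shares. With 1 choice changed at a time, the sign of the ratio stayed for Ahrr, Keap1 and Hmox1 (though Hmox1 was at -0.70 within plate 2 without 1 moLC), and turned in 2 for Ahr, 3 for Arnt, 1 for Tiparp and 2 for Nfe2l2, by a plate, a cell filter or 1 cell left out and by no scaling factor. Leaving out 1 cell moved Ahr between -0.13 and 0.98, Ahrr between -1.60 and -0.69 and Hmox1 between 1.30 and 2.16, over both plates. For Ahrr within plate 2, leaving out the eLC with the most reads was not tried. By the design of the study, eLCs and moLCs share the epidermis of the same animals. No analysis paired by animal was possible because the labels tie no cell to an animal, and no test was run.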
